A study of Mus musculus with 8 samples.

Results

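T cell genes were followed in 8 array profiles of the mouse ascending aorta. The group was defined by name as 8 genes, the CD3 chains Cd3d, Cd3e and Cd3g, the coreceptors Cd4 and Cd8a, the adhesion receptor Cd2, the kinase Lck and the interleukin-7 receptor Il7r. For 7 of them the array annotation gave 1 transcript cluster (the array's unit for 1 gene) with that single gene symbol. Lck was not analysed here. These 7 stood among 65956 transcript clusters, of which 30604 carried a single symbol.

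Ascending aortas gave 4 Fbn1mgR/mgR samples (arrays mgR611, mgR612, mgR613 and mgR614) and 4 wild-type samples (arrays WT675, WT676, WT742 and WT744). All were labelled male, aged 10 weeks and of C57BL/6J background, and both genotypes were bred from heterozygous Fbn1mgR/+ parents. The mgR allele is a germline hypomorph, carried by all cells, that lowers the output of fibrillin-1, a protein of the microfibrils outside cells, and serves as a model of severe Marfan syndrome. Fbn1 itself was not analysed here. Nothing in the labels says that the samples of a genotype are separate animals, so the p-values cover the spread among the samples alone, and that spread may be technical.

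T cells recognise antigen through the T cell receptor, whose signal is carried into the cell by the CD3 chains. CD4 binds class II and CD8 class I histocompatibility molecules, and both bring the kinase Lck to the receptor. CD2 binds CD48 on a partner cell, and the interleukin-7 receptor supports survival of resting lymphocytes. In the vessel wall T cells are found mainly in the adventitia and the surrounding fat. The thymus, where T cells mature, lies close to the ascending aorta, and maturing thymocytes pass through a stage that carries both CD4 and CD8.

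Several arrays stood apart in genes of other tissues. Signals of the 6 smooth muscle markers lay between 8.78 and 19.57 (log2) on all arrays. Brown fat markers reached summed linear signals of 96385 on mgR614 and 112044 on WT676, against 786 to 6543 on the other 6 arrays. Thymocyte markers had a summed signal of 125 to 384 on mutant arrays and 171 to 493 on wild-type ones, lowest on mgR612 and highest on WT744. A linear sum gives most weight to bright genes, on WT744 to Dntt (log2 8.09). Cd1d1 of the same list was highest on mgR614 (6.05) and next on WT676 (5.66), the arrays with high brown fat sums. In bulk RNA, fewer T cells and less RNA per T cell cannot be told apart.

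Promoter windows are shown for the CD3 genes, which are neighbours on chromosome 9, and for Il7r, whose signal took another course over the arrays. RefSeq (GRCm38.p6) places Cd3g at chr9:44969572-44980431 on the minus strand, Cd3d at chr9:44981769-44987052 on the plus strand and Cd3e at chr9:44998735-45009663 on the minus strand. Cd3g and Cd3d are therefore read away from each other, with 1355 bases between the start sites of the windows below. Each window is 300 bases long, with 250 before and 50 from the start site on, and is written 5′ to 3′ on the gene's strand. Capitals mark matches to GGAAGT, a core sequence bound by ETS factors, or to its reverse complement.
Cd3d (chr9:44981536-44981835, plus strand): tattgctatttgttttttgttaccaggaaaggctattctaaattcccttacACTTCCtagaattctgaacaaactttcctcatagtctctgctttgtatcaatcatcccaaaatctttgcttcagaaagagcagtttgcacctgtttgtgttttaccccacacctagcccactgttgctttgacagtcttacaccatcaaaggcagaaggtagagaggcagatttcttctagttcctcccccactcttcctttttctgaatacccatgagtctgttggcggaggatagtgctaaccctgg
Cd3g (chr9:44980382-44980681, minus strand): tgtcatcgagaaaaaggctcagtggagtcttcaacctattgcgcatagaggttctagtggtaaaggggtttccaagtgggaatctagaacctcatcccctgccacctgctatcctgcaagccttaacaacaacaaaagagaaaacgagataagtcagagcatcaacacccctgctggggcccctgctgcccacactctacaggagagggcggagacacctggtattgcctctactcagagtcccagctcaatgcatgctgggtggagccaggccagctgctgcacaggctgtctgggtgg
Cd3e (chr9:45009562-45009861, minus strand): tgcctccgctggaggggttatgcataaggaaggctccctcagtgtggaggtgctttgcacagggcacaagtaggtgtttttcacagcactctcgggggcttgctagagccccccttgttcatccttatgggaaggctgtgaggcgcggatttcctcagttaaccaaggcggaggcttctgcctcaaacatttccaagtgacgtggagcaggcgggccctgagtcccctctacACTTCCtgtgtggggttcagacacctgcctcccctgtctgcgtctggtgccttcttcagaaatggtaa
Il7r (chr15:9529827-9530126, minus strand): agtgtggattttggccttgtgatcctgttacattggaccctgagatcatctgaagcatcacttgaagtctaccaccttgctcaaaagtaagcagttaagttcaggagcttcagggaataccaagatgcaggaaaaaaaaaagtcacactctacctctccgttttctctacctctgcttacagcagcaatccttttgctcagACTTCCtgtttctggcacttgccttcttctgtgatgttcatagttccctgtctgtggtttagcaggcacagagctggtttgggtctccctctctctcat
The GGAAGT core had 1 match each in Cd3d, Cd3e and Il7r and 0 in Cd3g and Cd8a. Of all 32851 promoter windows, 23.8% held it on either strand. CANNTG, the E-box, had 1 match in Cd3d, 4 in Cd3g, 2 in Cd3e, 3 in Cd8a and 3 in Il7r, and 72.3% of all windows held 1 or more. TGTGGT, the RUNX core, was matched in Il7r alone among these 5 genes (16.8% of all windows), and AGATAA, which binds factors of the GATA family, in Cd3g alone (11.2%). These matches describe letters only.

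The first question was whether the mutant and the wild-type aorta hold different levels of T cell transcripts. None of the 7 genes passed, in either direction, an adjusted p under 0.05 in limma, a linear model with pooled spread fitted over 32957 clusters with signals above the median. Over all tested clusters 1.86% were called, 1.4% as higher and 0.464% as lower in the mutant. At an unadjusted p under 0.05, 2 of the 7 were higher (Cd2 and Il7r) and 0 were lower, against 7.59% and 6.68% of all tested clusters. The genotypes overlapped for all 7 genes, while they did not overlap for 8.92% of the tested clusters (5.26% with the mutant higher). Log2 differences (Fbn1mgR/mgR minus wild-type) ran from -0.48 to 0.43, with a median of -0.045 against -0.018 over all tested clusters. All 7 genes passed the filter on dim signals, and their mean signals lay above 4.11, the 95th percentile of olfactory receptor genes, which served as a reference for dim signals.

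The CD3 chains varied widely between samples of the same genotype. Cd3d, the delta chain, had log2 signals of 7.18, 5.72, 8.86 and 8.29 on mgR611, mgR612, mgR613 and mgR614, and of 7.64, 7.26, 6.22 and 9.11 on WT675, WT676, WT742 and WT744. The lowest value thus came from a mutant and the highest from a wild-type sample, 10.5-fold apart. Group means were 7.51 ± 1.38 and 7.56 ± 1.20 (SD, n = 4 each), a difference of -0.045 (SE 0.764, adjusted p = 0.990). Its 95% interval of -1.78 to 1.69 spans 0.291-fold to 3.23-fold, so a change of up to about that size in either direction is not excluded with 4 arrays each. A call needed an adjusted p under 0.05, which is stricter than this unadjusted interval, so larger changes could also have been missed.

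Cd3e, the epsilon chain, had signals of 6.83, 5.65, 8.08 and 7.10 in the mutant and 6.67, 6.73, 6.34 and 8.45 in the wild-type arrays, in the same order of arrays. Here too mgR612 was the lowest and WT744 the highest of all. Means were 6.92 ± 1.0 and 7.05 ± 0.951, and the difference was -0.13 (SE 0.579, adjusted p = 0.956). Cd3g, the gamma chain, had signals of 7.41, 6.53, 9.17 and 8.31 in the mutant and 7.61, 7.24, 6.96 and 8.87 in the wild-type arrays. For this chain mgR613 lay above WT744, and mgR612 was again the lowest. Means were 7.86 ± 1.14 and 7.67 ± 0.843, and the difference was 0.19 (SE 0.595, adjusted p = 0.935).

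**Figure D1:**
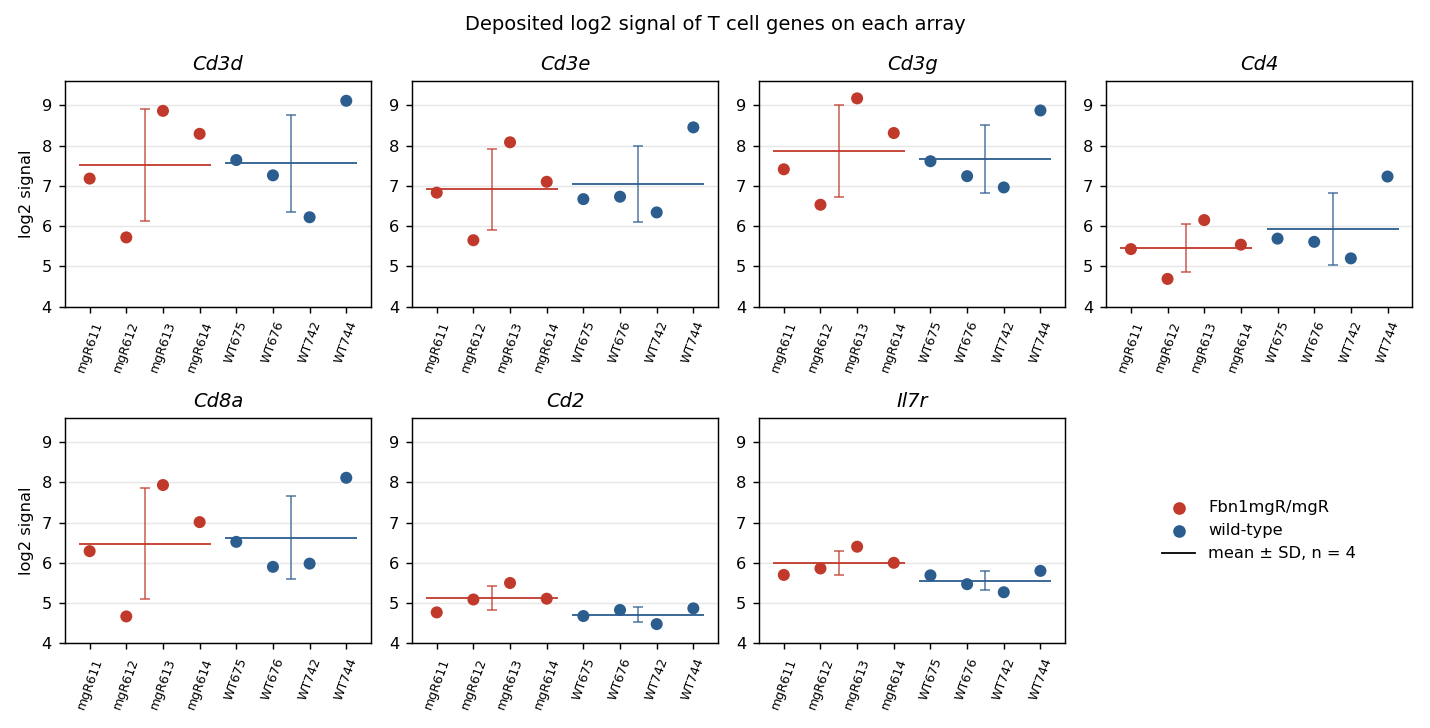
Log2 signal (y axis) of 7 T cell genes on each of the 8 arrays (x axis; red, Fbn1mgR/mgR; blue, wild-type), with the genotype mean as a line and its SD as a bar (n = 4 each). mgR612 is the lowest array for Cd3d, Cd3e, Cd3g, Cd4 and Cd8a, whereas Cd2 and Il7r are lowest on WT742.

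Coreceptor genes followed a similar course. Cd8a, the alpha chain of CD8, had signals of 6.29, 4.67, 7.93 and 7.01 in the mutant and 6.52, 5.90, 5.98 and 8.11 in the wild-type arrays. From mgR612 to WT744 this is a 10.9-fold range. Means were 6.48 ± 1.38 and 6.63 ± 1.03, and the difference was -0.15 (SE 0.717, 95% interval -1.78 to 1.48, adjusted p = 0.959). Cd4 had signals of 5.43, 4.69, 6.15 and 5.54 in the mutant and 5.69, 5.61, 5.20 and 7.23 in the wild-type arrays. Only WT744 and mgR613 exceeded 6 on the log2 scale. Means were 5.45 ± 0.599 and 5.93 ± 0.891, and the difference was -0.48 (SE 0.452, 95% interval -1.51 to 0.55, adjusted p = 0.716). This was the largest of the negative differences among the 7 genes.

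Cd2 and Il7r showed less variation. Cd2 had signals of 4.77, 5.09, 5.50 and 5.11 in the mutant and 4.68, 4.83, 4.48 and 4.87 in the wild-type arrays. The mutant array mgR611 lay within the wild-type range and the other 3 lay above it. Means were 5.12 ± 0.299 and 4.72 ± 0.177, and the difference was 0.40 (SE 0.160, 95% interval 0.040 to 0.77, unadjusted p = 0.0335, adjusted p = 0.295 in limma). Il7r, the alpha chain of the interleukin-7 receptor, had signals of 5.70, 5.86, 6.40 and 6.00 in the mutant and 5.69, 5.47, 5.27 and 5.80 in the wild-type arrays. Again mgR611 was the one mutant array inside the wild-type range. Means were 5.99 ± 0.300 and 5.56 ± 0.236, and the difference was 0.43 (SE 0.176, 95% interval 0.033 to 0.83, unadjusted p = 0.0369, adjusted p = 0.308 in limma). Both differences stayed positive without any 1 array, at 0.28 to 0.52 for Cd2 and 0.30 to 0.53 for Il7r, with adjusted p between 0.163 and 0.511.

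The direction of the CD3 and Cd8a differences rested on single arrays. Without mgR612 the difference was 0.55 for Cd3d, 0.29 for Cd3e and 0.45 for Cd8a, and without WT744 it was 0.47, 0.34 and 0.34, all positive where the full set was negative. The Cd3d difference was also positive without mgR611, at 0.066. Without mgR613 the Cd3g difference was -0.25, and without WT742 it was -0.052. Cd4 kept a negative sign with each array left out, from -0.72 to -0.048, the last without WT744. Adjusted p was 0.573 or more for these 5 genes under every alternative run in which they were tested. None of the 7 genes was called with any array left out.

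**Figure D2:**
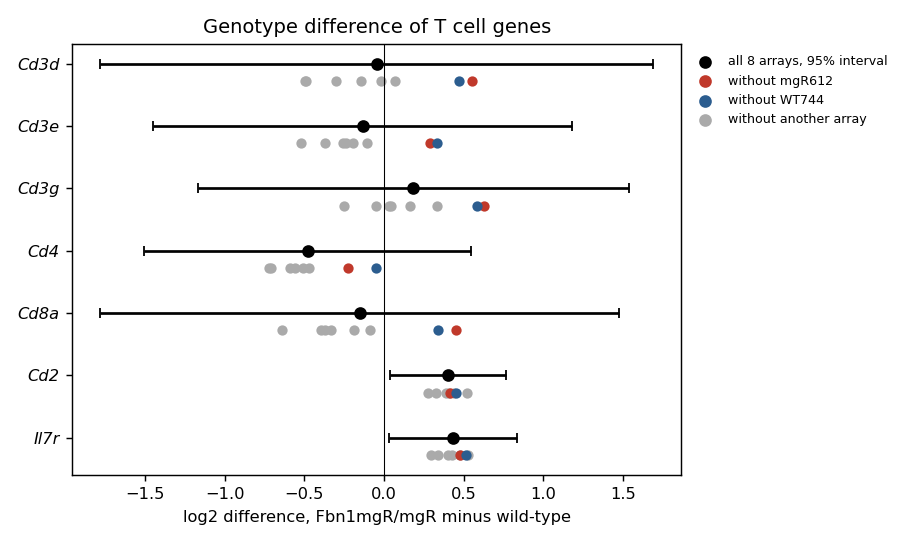
Log2 difference (x axis, Fbn1mgR/mgR minus wild-type) of each T cell gene with its 95% interval from limma (black), and below it the difference with 1 array left out (red, without mgR612; blue, without WT744; grey, without another array). The intervals of Cd3d, Cd3e, Cd3g, Cd4 and Cd8a span 0 and those of Cd2 and Il7r lie just above it before adjustment for 32957 tests.

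The spread itself set 5 of the genes apart from most of the array. The SD within a genotype, pooled over both genotypes, was 1.29 for Cd3d, 0.976 for Cd3e, 1.0 for Cd3g, 1.21 for Cd8a and 0.759 for Cd4 (log2), against a median of 0.218 over all tested clusters. Between 97.8% and 99.6% of the tested clusters had a smaller SD than these 5 genes. For Cd2 (SD 0.245) and Il7r (SD 0.270) the shares were 58.3% and 64.6%.

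Likeness between profiles was measured as the mean absolute difference over the 8 arrays, after the mean of each gene was subtracted. It was 0.249 to 0.346 (log2) among the 3 CD3 genes, 0.223 to 0.265 between them and Cd8a, and 0.256 to 0.480 between them and Cd4. Between Cd2 or Il7r and these 5 genes it was 0.455 to 0.816. Cd2 and Il7r differed from each other by 0.0931, the smallest value of the 21 pairs, with mean absolute deviations of 0.238 and 0.241 around their own means. Both ran in the order mgR613, mgR614, mgR612 and WT744 from the highest array down. The neighbours Cd3d and Cd3g, with 0.295, were no more alike than Cd3d and Cd8a, a pair on different chromosomes, with 0.223.

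**Figure D3:**
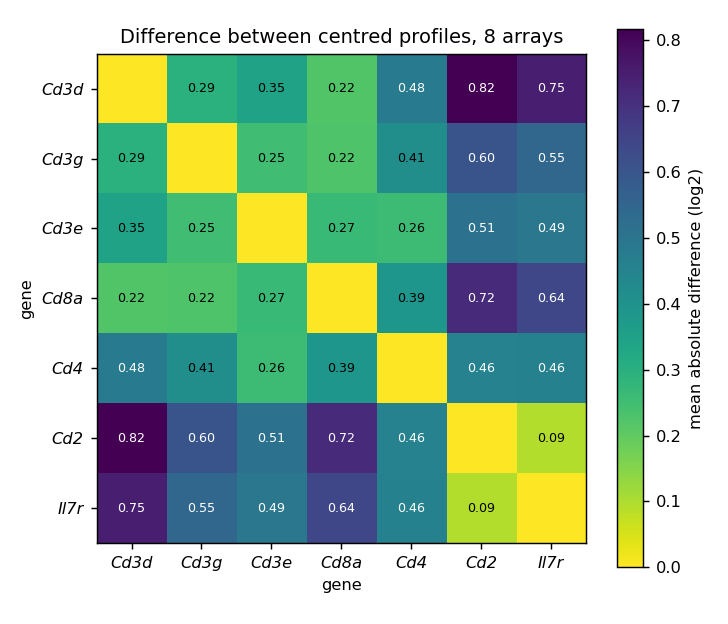
Mean absolute difference between the centred log2 profiles of each pair of T cell genes over 8 arrays (colour and number; darker means less alike). Cd3d, Cd3g, Cd3e and Cd8a differ by at most 0.346, and Cd2 and Il7r by 0.0931.

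The 6 genes most like the mean profile of the 7 were taken from those tested with a single symbol. Bcl11b, a transcription factor of T cell commitment, differed from that mean by 0.0923 over the 8 arrays. Its signals were 6.09, 5.15, 7.15 and 6.60 in the mutant and 6.30, 5.89, 5.81 and 7.28 in the wild-type arrays, with mgR612 lowest and WT744 highest. Next came Arpp21 (0.176), a gene of the thymocyte list, Sh2d1a (0.189), which encodes the adaptor SAP, and the receptor gene Cd96 (0.189). Themis (0.189), which acts in thymocyte selection, and Myb (0.195), a transcription factor of haematopoietic precursors, completed the 6. The genotype differences of these 6 ran from -0.31 to 0.01, with adjusted p of 0.827 or more in limma. As the 6 were chosen for likeness to that mean on the same arrays, their small differences follow largely from the choice. The same holds for their lowest and highest arrays.

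Genes of the T cell receptor complex and its signalling gave no call. Of 23 listed, 17 were tested, 0 passed in limma (median difference -0.033), and at an unadjusted p under 0.05 there were 3 higher and 0 lower. Over all tested clusters 1.4% passed as higher and 0.464% as lower, and 7.59% and 6.68% at that unadjusted p. These shares are the background for every list below. The 3 were Thy1 (0.92, adjusted p = 0.0920), Ptprc, which encodes the pan-leukocyte phosphatase CD45 (1.37, adjusted p = 0.0966), and the adaptor Lcp2 (1.01, adjusted p = 0.118). Cd6, the fourth by p, was at -0.22 (adjusted p = 0.569). Without WT744, Ptprc passed (1.67, adjusted p = 0.0377; 0.0377 to 0.228 over all alternatives). For 11 of the 17 genes WT744 was the highest array and for 11 mgR612 was the lowest; over all tested clusters the shares were 10.8% and 9.43%.

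Cd8b1, the beta chain of CD8, had the widest range of that list and was singled out after its values were seen. Its signals were 10.10, 7.24, 12.16 and 11.41 in the mutant and 10.39, 10.54, 10.02 and 12.80 in the wild-type arrays, a 47.2-fold range from mgR612 to WT744. The difference between genotypes was -0.71 (SE 1.04, adjusted p = 0.840). Lat, the membrane adaptor of the receptor, chosen in the same way, ranged over 11.6-fold between the same 2 arrays, with a difference of -0.35 (SE 0.673, adjusted p = 0.887).

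Thymocyte genes varied unequally over the arrays, most of all Dntt and least Ptcra. Of 6 tested, 0 passed in limma and 0 were at an unadjusted p under 0.05 in either direction (median -0.090). On WT744 5 were highest and on mgR612 5 were lowest, against 10.8% and 9.43% of all tested clusters. Among these, Ccr9 was equally low on WT742 (4.52), and Ptcra, with a mean signal of 4.12 near the dim range, varied by only 0.22 (log2). Dntt, which encodes the terminal transferase of developing lymphocytes and was singled out after its values were seen, had signals of 5.98, 4.47, 7.82 and 7.08 in the mutant and 6.36, 5.95, 5.76 and 8.09 in the wild-type arrays. Its 12.3-fold range ran from mgR612 to WT744, as for Cd3d and Cd8a, with a difference of -0.20 (SE 0.752, adjusted p = 0.946). Arpp21 (-0.28), Rag2 of the recombinase (-0.093), Ptcra, the pre-T cell receptor alpha chain (-0.030), and the chemokine receptor gene Ccr9 (-0.088) had adjusted p of 0.827 or more. The part of these transcripts in the variation of the CD3 genes was not tested. Without WT744 and mgR613, the highest array of each genotype in Dntt, 0 of the 7 T cell genes passed, and Cd3d was at 0.023, Cd3e at -0.053, Cd3g at 0.15, Cd8a at -0.14, Cd4 at -0.28, Cd2 at 0.33 and Il7r at 0.38.

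**Figure D4:**
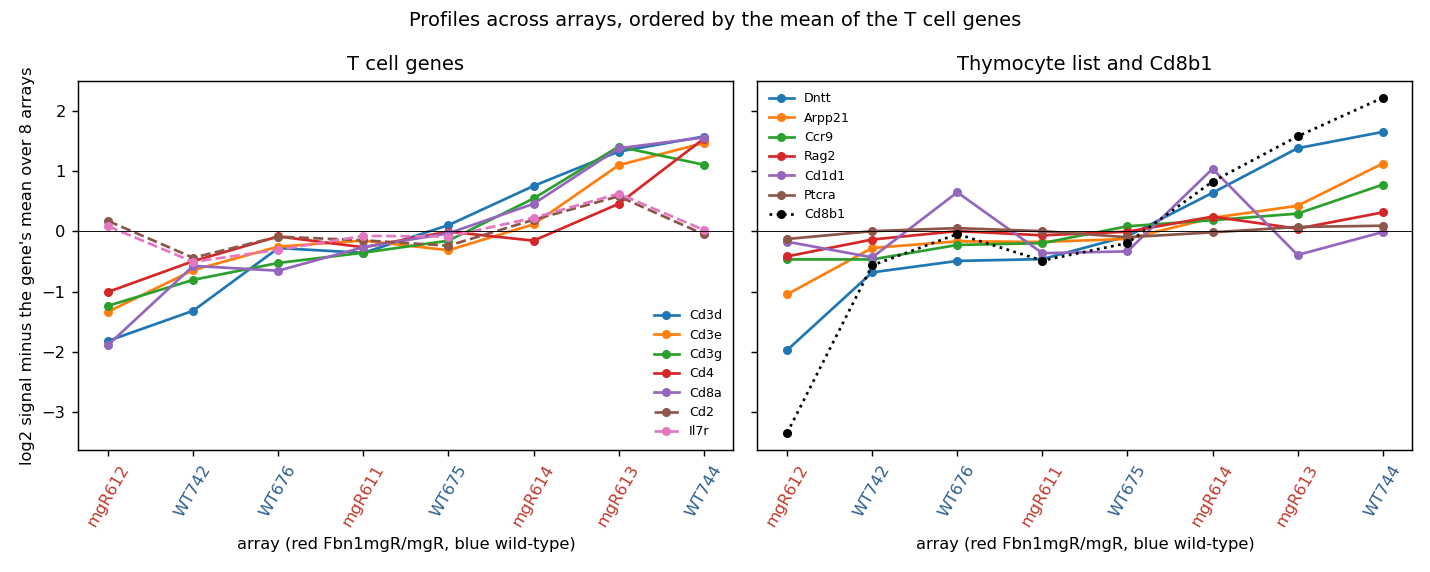
Log2 signal minus the mean of each gene over 8 arrays (y axis), with arrays ordered by the mean of the T cell genes (x axis; red names, Fbn1mgR/mgR; blue names, wild-type). On the left, Cd3d, Cd3e, Cd3g, Cd4 and Cd8a are lowest on mgR612 and highest on WT744 or mgR613 while Cd2 and Il7r (dashed) stay within 0.63 of their means; on the right, Dntt, Arpp21 and Cd8b1 are lowest on mgR612 and highest on WT744, as are Ccr9 (level with WT742 at the low end) and, over narrower ranges, Rag2 and Ptcra, whereas Cd1d1 is highest on mgR614.

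Transcription factors of T cells gave no call. Of 8 tested of 15, 0 passed in limma and 0 were at an unadjusted p under 0.05 (median 0.014). Ets1 was at 0.34 (adjusted p = 0.376), Ikzf1 at 0.64 (0.406), Zbtb7b, which directs CD4 lineage choice, at 0.10 (0.703) and Tox at -0.13 (0.754). Satb1, a chromatin organiser of thymocytes named here for its range, varied over 11.6-fold from mgR612 to WT744, with a difference of -0.45 (SE 0.659, adjusted p = 0.840).

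Among costimulatory and checkpoint receptors, Cd226, an activating receptor of T and NK cells, was the one of 8 tested that rose. Its signals were 5.62, 6.21, 6.00 and 6.27 in the mutant and 5.12, 4.59, 4.41 and 5.10 in the wild-type arrays, with no overlap. The difference was 1.22 (SE 0.206, adjusted p = 0.0247). Adjusted p was 0.0551 to 0.0736 without mgR612, mgR613, mgR614, WT676 or WT742. Btla, an inhibitory receptor of B and T cells, was at 0.65 (adjusted p = 0.0980), Pdcd1 at 0.20 (0.373) and Tnfrsf18 at 0.14 (0.582). The genotypes did not overlap for Btla and Pdcd1 either, so with Cd226 this held for 3 of the 8 tested. Ctla4, Tigit, Lag3, Cd40lg, Tnfrsf9 and Havcr2 fell below the filter, with mean signals from 3.26 to 3.93, in the range of dim signals. Havcr2 was at 4.18 to 4.26 on the mutant and 3.55 to 3.76 on the wild-type arrays, without overlap, and was not tested. The others of these overlapped. Over all tested clusters 8.92% did not overlap.

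The listed cytokine and effector transcripts had mean signals in the dim range. All 12 T cell cytokine and effector genes, among them Ifng, Il2, Il4, Il17a, Gzmb and Prf1, had mean signals between 3.11 and 3.97, and none entered the test. No direction can be read for them at this signal.

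Ligands of the T cell receptors and coreceptors included genes that rose in the mutant. Of 9 tested, 4 rose and 0 fell in limma (5 and 0 at an unadjusted p under 0.05; median 0.65). Over all tested clusters 1.4% rose and 0.464% fell, and 7.59% and 6.68% at that unadjusted p. Class II genes, whose products CD4 binds, had differences of 3.71 for H2-Eb1 (adjusted p = 0.00167), 3.38 for H2-Ab1 (0.00299) and 2.30 for H2-Aa (0.00874). The class I genes H2-K1 (0.46, adjusted p = 0.523) and H2-D1 (0.38, 0.492), read by CD8, did not pass, nor did their partner B2m (0.65, 0.0832). Cd48, the ligand of CD2, had signals of 10.00, 11.27, 11.25 and 10.67 in the mutant and 8.04, 8.25, 7.75 and 8.63 in the wild-type arrays. It rose by 2.63 (SE 0.308, adjusted p = 0.00590), or 6.19-fold, and mgR612, the lowest array for the CD3 chains, was its highest. Il7 (0.21, adjusted p = 0.441) and Tslp (0.20, 0.667), which signal through receptors that contain the Il7r product, did not pass. Without WT744 and mgR613, H2-Eb1 alone was called (3.75, adjusted p = 0.0387), with adjusted p of 0.0556 for H2-Ab1, 0.0580 for Cd48 and 0.0735 for H2-Aa.

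The pathway downstream of Il7r gave no call in 6 tested genes in limma (median -0.14), with 1 higher and 2 lower before adjustment at p under 0.05. Before adjustment, 7.59% of all tested clusters were higher and 6.68% lower. Stat5b was at -0.47 (adjusted p = 0.158), the kinase gene Jak1 at 0.39 (0.268), the survival gene Bcl2 at -0.40 (0.295) and Stat5a at -0.19 (0.598). The shared gamma chain Il2rg and its kinase Jak3 were not analysed here.

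Of 12 homing and chemotaxis genes tested, 2 rose and 0 fell in limma (4 and 0 at an unadjusted p under 0.05; median 0.19). The shares of all tested clusters were 1.4% and 0.464%, and 7.59% and 6.68% at that unadjusted p. Cd44, a hyaluronan receptor of activated lymphocytes and many other cells, rose by 1.50 (SE 0.213, adjusted p = 0.0115). Cxcl16, the ligand of the T cell chemokine receptor CXCR6, rose by 1.28 (SE 0.164, adjusted p = 0.00775). Cxcl12 (0.47, adjusted p = 0.210) and Cxcl9 (0.96, 0.286) did not pass. Without WT744 and mgR613 neither Cd44 (adjusted p = 0.0674) nor Cxcl16 (0.0714) was called.

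**Figure D5:**
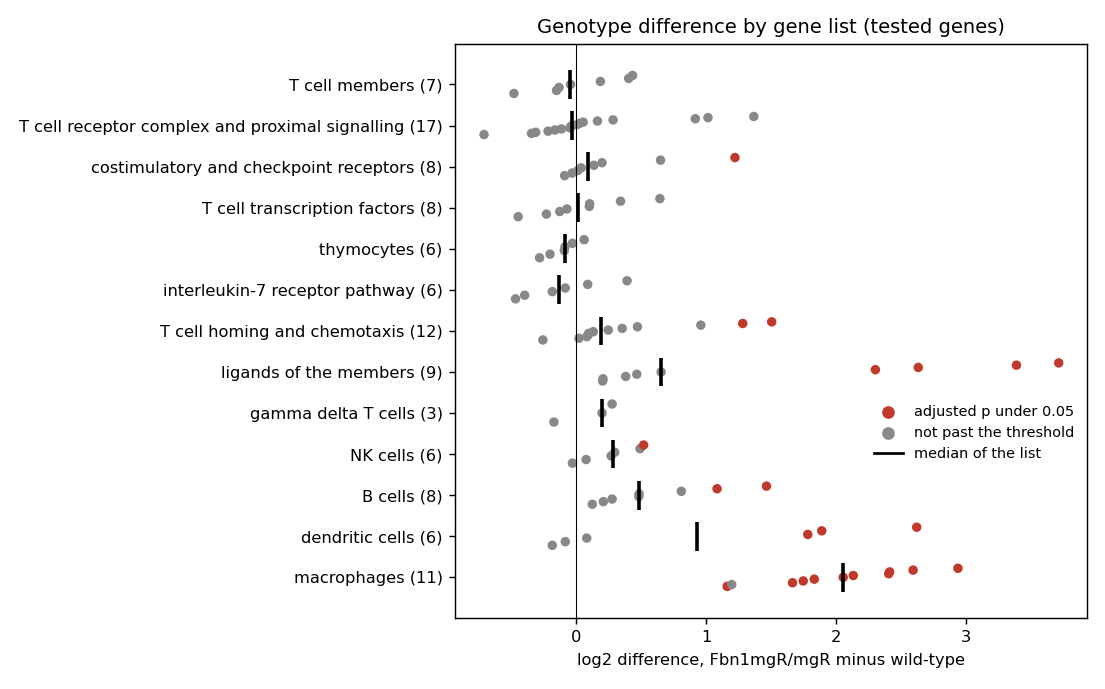
Log2 difference between genotypes (x axis) of each tested gene by gene list (y axis, number tested in brackets; red, adjusted p under 0.05 in limma; black bar, median of the list). The 7 T cell genes have a median of -0.045 and none is red, while 4 of 9 ligands and 10 of 11 macrophage genes are.

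Other leukocyte lists are given for comparison. Of 11 macrophage genes tested, 10 rose and 0 fell in limma (11 and 0 at an unadjusted p under 0.05; median 2.05). Without WT744 and mgR613 the count was 3. The smallest p-values belonged to Mpeg1 (2.59), Fcgr3 (2.13), Itgam (2.05) and Cd68 (2.40). The summed linear signal of all 11 was 46251 to 104788 on mutant arrays and 11378 to 19392 on wild-type ones. Of 6 dendritic cell genes, Clec9a (1.78, adjusted p = 0.00103), Itgax (1.89, 0.00206) and Cd209a (2.62, 0.00655) rose in limma. The other 3, Zbtb46 (-0.085), Ccr7 (0.080) and Siglech (-0.19), did not pass. Without WT744 and mgR613, Clec9a and Itgax were called and Cd209a was not (2.69, adjusted p = 0.0674). The part of macrophage and dendritic cell transcripts in the differences of Cd2, Il7r, Ptprc and Cd226 was not tested.

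B cell genes had their highest signals on the array that was lowest for the CD3 chains. Of 8 tested, Blnk (1.46, adjusted p = 0.0117) and Fcrla (1.08, 0.0286) rose, while Cd79a (0.48, 0.187) and Cd79b (0.48, 0.273) did not pass. Fcrla was not called without mgR611, mgR614 or any 1 wild-type array (adjusted p 0.0624 to 0.0857), and neither gene was without WT744 and mgR613. Ms4a1, which encodes CD20 and was named after its values were seen, was at 5.89 on mgR612 against 4.12 to 4.84 on the other mutant and 3.63 to 4.10 on the wild-type arrays. The summed signal of B cell genes was 260 to 453 on mutant arrays, highest on mgR612, and 176 to 180 on wild-type ones. Of 6 NK cell genes tested, Klrd1 rose by 0.52 (SE 0.105, adjusted p = 0.0489), and Klrb1c (0.30, 0.174), Klrk1 (0.27, 0.210) and the granzyme gene Gzma (0.49, 0.559) did not pass. Klrd1 missed the threshold with any 1 array left out, with adjusted p of 0.0634 to 0.130. Of gamma delta T cell genes 3 were tested and 0 passed in limma (1 and 0 at an unadjusted p under 0.05), and of group 2 innate lymphoid genes 1 was tested, which did not pass. At that unadjusted p, 7.59% of all tested clusters were higher and 6.68% lower.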

How the data were processed

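Aortic RNA was measured on Affymetrix Clariom D mouse arrays, per the labels. The deposited log2 signals, 1 per transcript cluster and array, had been summarised by the authors with the Transcriptome Analysis Console, per the submitters' processing notes. The version and the normalization were not given in the sources used here. Values are rounded to 2 decimals, array medians were 3.95 to 4.07, and no detection p-values were used. The number of arrays limits the precision. Symbols came from the platform annotation (several rows would be represented by the brightest; each of the 7 genes had 1), and 22818 gene IDs matched RefSeq (GRCm38.p6). Apart from the reference for dim signals, the signal filter and the summed signals of lists, levels of different probes were not compared.

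Clusters above the median mean signal (4.01) entered a fit in limma 3.58.1 under R 4.3.3 (lmFit, then eBayes with its trend option, Benjamini-Hochberg adjustment over 32957 clusters, threshold 0.05). No array batch was named in the labels. Genes were named by rule: all members, up to 4 genes with the smallest p per list, and the 6 nearest profiles. Lists of other tissues were given without gene names, as a signal range (smooth muscle), sums (brown fat) or counts (fibroblasts). Cd8b1, Dntt, Lat, Satb1 and Ms4a1 were named after their values were seen, as were the remaining ligands. The members and lists were chosen with earlier results of these data known. The fit was tested on simulated data. Alternatives covered the moderation of the spread, the filter, 3 scalings, array weights, thresholds and each array left out; moderation over all clusters and leaving out WT744 with mgR613 were added after the data were seen. Figures used matplotlib 3.10.9 and Python 3.11.15.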

Additional observations from a re-analysis of the deposited data

Results flagged for a closer look

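In 61 genes, each checked in both genotypes of 4 arrays (122 checks), 4 had an array far from the others of its genotype. None of them was a member of the T cell gene group. At a rate of about 1 in 20 for independent checks, 4 of 122 would not be an excess. These checks share arrays, and many of the genes were chosen on the same arrays. The count therefore does not decide whether chance gave the flags. On WT744, Themis was at 7.41 against 5.68 to 5.88 on the other wild-type arrays, Arpp21 at 6.52 against 5.12 to 5.27, and Thy1 at 6.94 against 6.62 to 6.66. On WT676, Ms4a1 was at 3.63 against 4.02 to 4.10 on the other wild-type arrays, values in the range of dim signals. The same array WT744 was the highest of its genotype for Cd3d, Cd3e, Cd3g, Cd4 and Cd8a. Themis and Arpp21 were among the genes chosen for likeness to the mean of the T cell genes, which was itself highest on WT744.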

How the results depend on the processing

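None of the 123 values of the 7 T cell genes over 18 alternatives passed an adjusted p of 0.05 (lowest 0.163; Cd4, Cd2 and Il7r were too dim to enter the fit above the upper quartile), nor at an adjusted p under 0.1 in the full set; 2 were higher at an unadjusted p under 0.05. With 1 array left out, differences ranged from -0.49 to 0.55 for Cd3d, -0.52 to 0.34 for Cd3e, -0.25 to 0.63 for Cd3g and -0.64 to 0.45 for Cd8a. They ranged from -1.35 to 0.29 for Cd8b1, -0.66 to 0.19 for Lat, -0.82 to 0.11 for Satb1, -0.70 to 0.42 for Dntt, -0.65 to 0.11 for Themis and -0.69 to 0.18 for Myb. The ranges were -0.47 to 0.046 for Arpp21, -0.19 to 0.030 for Rag2, -0.067 to 0.0067 for Ptcra, -0.26 to 0.16 for Ccr9, -0.37 to 0.29 for Bcl11b, -0.28 to 0.29 for Sh2d1a and -0.36 to 0.36 for Cd96. With array weights Sh2d1a was at -0.074 and Cd96 at -0.049. Without WT744 and mgR613, Cd3d was at 0.023, Ccr9 at 0.043, Sh2d1a at -0.050 and Cd96 at -0.13; the cause of these turns was not tested.

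Counts over all clusters were 210 to 450 higher and 54 to 122 lower with 1 array left out, 99 lower without a filter (460 and 153 in the full set), and 49 higher and 6 lower without WT744 and mgR613, which leaves 3 arrays per genotype. In that last set the counts that rose were 0 costimulatory, 1 ligand, 0 homing, 0 B cell, 0 NK cell, 3 macrophage and 0 fibroblast genes (1, 4, 2, 2, 1, 10 and 1 in the full set). With only clusters above the upper quartile, 0 costimulatory, 1 B cell and 0 NK cell genes rose. Cd226, Fcrla and Klrd1 were too dim to enter that fit and were not tested in it. Klrd1 was not called, so that 0 NK cell genes rose, with eBayes without a trend, robust eBayes, no filter, median centring or array weights. With 1 array left out, 0 to 1 receptor complex, 0 to 1 costimulatory, 1 to 2 B cell and 0 to 0 NK cell genes rose. No paired analysis was possible because the genotypes share no replicate numbers. The mean of several rows of a gene gives the same values, since each T cell gene had 1 row. The 4 arrays per genotype limit every interval, and a p that misses the threshold does not show equal levels.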
